A study of Rattus norvegicus with 44 samples.

Results

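The livers and kidneys of vehicle-treated male rats were compared to describe which transporters, enzymes, secreted proteins and transcription factors set the 2 organs apart. The members were chosen by their titles, as the 4 liver arrays and 3 kidney arrays at 0 mg/kg, which are 7 of the 44 arrays of the series. The rats were Harlan Sprague Dawley males, aged 6 to 8 weeks at assignment, that were killed the day after the last of 5 daily gavages of corn oil at 5 mL/kg. The other 37 arrays are of rats given crude MCHM, an industrial alcohol used in coal washing, in the same vehicle at 0.1 to 500 mg/kg, and they enter below only as arrays outside the comparison. No rat in the series was left without gavage or corn oil, so both organs describe gavaged animals. Total RNA was measured on an Affymetrix rat expression array, in which a probe set is a group of short probes for one transcript, and values are on the log2 scale, where each unit is a 2-fold difference. Neither the number of rats behind an array nor whether a liver and a kidney came from the same rat is given in the sources used here.

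Liver parenchyma is made up mainly of hepatocytes, which secrete most plasma proteins into the blood, make bile acids, turn ammonia into urea and oxidise drugs and steroids. The kidney is built from tubule segments in series, whose epithelial cells take filtered salts, sugars, amino acids and small proteins back from the urine through segment-specific carriers. Both organs make glucose, break down amino acids and handle organic anions, so part of their equipment is shared, and some of it is supplied by related genes. The factors HNF1 and HNF4 are known to act in both hepatocytes and proximal tubule cells, whereas FOXA factors are known for liver and PAX, LHX and HOX genes for the kidney lineage.

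Arrays of one organ were close to each other and far from those of the other. Over all 31042 probe sets, Pearson correlations ran from 0.991 to 0.992 between liver arrays, from 0.989 to 0.993 between kidney arrays and from 0.841 to 0.850 between an array of each organ. The organ labels were borne out by defining markers. The 8 hepatocyte markers had a summed level of 16.73 to 16.77 in liver and 11.24 to 11.97 in kidney, on the log2 scale of the summed linear values. The 8 proximal tubule markers had 10.94 to 11.02 in liver and 16.08 to 16.14 in kidney. Such a sum is carried mostly by its highest members. Singly, all 8 hepatocyte markers were higher in liver, with differences from 2.76 to 10.46. All 8 proximal tubule markers were lower, with differences from -8.66 to -1.34. Markers of the thick ascending limb had 8.61 to 8.76 in liver and 13.83 to 14.35 in kidney, and those of the collecting duct 7.57 to 7.88 in liver and 11.55 to 11.65 in kidney. In whole-organ RNA, fewer cells of a type and less RNA per cell cannot be told apart.

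Some arrays stood apart within their organ. Xist, the RNA that silences one X chromosome in female cells, was at 2.38, 11.00, 2.66 and 2.48 in the 4 livers and at 2.31, 9.33 and 2.51 in the 3 kidneys, so the array numbered 2 of each organ was high although all rats are labelled male. It stayed at or below 3.04 in the 23 dosed livers and 2.59 in the 14 dosed kidneys. Ucp1, the uncoupling protein of brown fat, was at 4.63, 4.63, 4.85 and 4.37 in liver and at 4.61, 4.50 and 9.17 in kidney, where the third array stood alone. The summed level of 8 adipocyte markers was 9.91 to 10.17 in liver and 9.36, 9.86 and 11.01 in kidney replicates 1 to 3. Ucp1 is itself among these 8, so the sum is not separate from its value. What gave these arrays such values was not tested. Without both arrays numbered 2, the probe sets that differed at limma's adjusted p below 0.05 numbered 14490, against 18258 with them, and 7103 were higher in liver and 7387 lower, against 9678 and 8580. Those that also differed at least 8-fold numbered 1143, against 1142, and 1123 without kidney replicate 3.

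Most of the transcripts measured differed between the organs. With limma, 18258 of 31042 probe sets differed at an adjusted p below 0.05, which is 58.8%, with 9678 higher in liver (31.2%) and 8580 lower (27.6%). Of these, 1142 (3.68%) also differed at least 8-fold, 496 higher in liver (1.60%) and 646 lower (2.08%). Which direction held more probe sets was not stable. It was 7819 higher and 7832 lower without kidney replicate 2, and 4634 higher and 6825 lower when only probe sets with a mean above the median were tested. Each of 14217 genes was then represented by its probe set with the highest mean. By this measure 9246 genes passed (65.0%), 4011 higher in liver (28.2%) and 5235 lower (36.8%), and 9548 genes (67.2%) showed no overlap between the organs' arrays. Because so many passed, a second limit of at least 8-fold was used for organ-restricted transcripts, which 782 genes passed (5.50%), 356 as higher in liver (2.50%) and 426 as lower (3.00%). Counts in the gene lists and families below are to be read beside these shares of all genes. Just inside the 8-fold limit of 3 log2 units the differences were 3.0066 and -3.0037, and just outside they were 2.9999 and -2.9968. The labels call the arrays of a group biological replicates. If they were technical, the p-values would measure only the spread between these arrays.

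The differences were unevenly sized in the 2 directions. The 10 genes highest in liver differed by a mean of 10.54 log2 units and the 10 lowest by 8.76. At least 6 log2 units separated the organs for 139 genes higher in liver and 66 lower. By contrast, 9385 genes, or 66.0%, had a 95% confidence interval of the difference that lay wholly within 2-fold in either direction. The median standard deviation within an organ was 0.14 in liver and 0.13 in kidney.

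**Figure D1:**
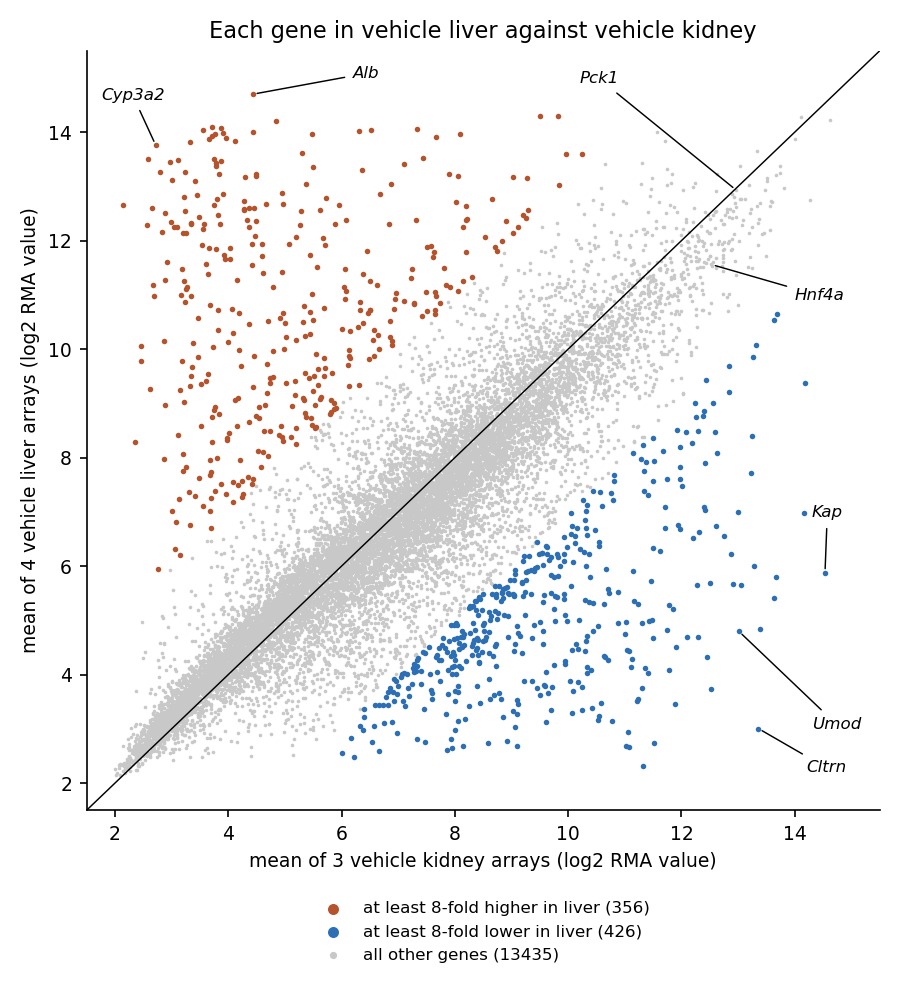
Each point is 1 of 14217 genes, with its mean over the 4 vehicle livers on the vertical axis and over the 3 vehicle kidneys on the horizontal axis, both as log2 RMA values. The 356 genes at least 8-fold higher in liver (orange) lie above the diagonal of equal values and the 426 at least 8-fold lower (blue) below it, while Pck1 lies on it.

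The promoters of a few organ-restricted genes are shown because HNF1 is a factor known in both organs and its core site can be seen in the letters. Each sequence holds the 250 bases before the start of the gene in RefSeq's rat assembly GRCr8, written 5′ to 3′ on the gene's strand, with GTTAAT or its reverse complement ATTAAC in capitals. Alb and Fabp1 stand for genes higher in liver, at chr14:17906980-17907229 on the minus strand and chr4:104749090-104749339 on the plus strand. Slc34a1 and Cltrn stand for genes lower in liver, at chr17:9238984-9239233 and chrX:34027125-34027374, both on the minus strand. These 4 were chosen after it was seen that they hold the motif.
Alb: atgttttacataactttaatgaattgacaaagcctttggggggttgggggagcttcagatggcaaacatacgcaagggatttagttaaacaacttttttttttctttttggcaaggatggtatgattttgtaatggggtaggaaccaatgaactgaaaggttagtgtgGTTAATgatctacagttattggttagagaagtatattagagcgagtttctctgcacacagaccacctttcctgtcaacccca
Fabp1: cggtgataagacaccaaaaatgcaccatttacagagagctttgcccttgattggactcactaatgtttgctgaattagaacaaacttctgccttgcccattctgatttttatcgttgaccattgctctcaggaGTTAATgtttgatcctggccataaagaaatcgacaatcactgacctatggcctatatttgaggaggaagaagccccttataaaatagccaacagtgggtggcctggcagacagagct
Slc34a1: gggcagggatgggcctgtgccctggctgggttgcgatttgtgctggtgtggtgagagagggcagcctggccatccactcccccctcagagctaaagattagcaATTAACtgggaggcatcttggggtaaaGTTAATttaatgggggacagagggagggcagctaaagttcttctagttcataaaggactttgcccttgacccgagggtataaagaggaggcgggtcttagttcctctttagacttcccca
Cltrn: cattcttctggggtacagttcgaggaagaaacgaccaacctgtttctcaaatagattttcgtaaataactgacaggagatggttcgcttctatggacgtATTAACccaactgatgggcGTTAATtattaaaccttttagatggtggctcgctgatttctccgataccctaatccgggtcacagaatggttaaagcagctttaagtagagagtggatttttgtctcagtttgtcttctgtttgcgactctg

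The core site began 82 bases before the start in Alb, 117 in Fabp1, 120 and 147 in Slc34a1 and 132 and 151 in Cltrn. Promoters from 250 bases before to 50 after the start were at hand for 283 of the 356 genes at least 8-fold higher in liver, 345 of the 426 lower and 11700 of all 14217. GTTAAT, on either strand, was in 13.4% of the liver promoters, 8.70% of the kidney promoters and 4.85% of all. CAAAGTC, a core of the HNF4 site, was in 7.07%, 4.93% and 3.58% of the same sets. TGTTTAC, a core of the FOXA site, was in 7.42% of the liver promoters, 2.61% of the kidney promoters and 2.46% of all. The TATA box TATAAA was in 19.8%, 11.9% and 8.45%. The motifs were searched separately, with overlaps between them allowed, and a match is a description of letters, not of binding.

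The 8 genes with the largest excess in liver were Cyp3a2, Cyp2c6v1, Obp3, Fabp1, Fgg, Apoa1, Cps1 and Cyp2c13. Cyp3a2, a cytochrome P450 known as male-predominant in rat liver, was at 13.86, 13.74, 13.73 and 13.71 in the 4 livers and at 2.67, 2.74 and 2.74 in the 3 kidneys. The organs were far apart and each was tight, with a difference of 11.04 ± 0.09 (SE; limma adjusted p = 1.01e-12). Cyp2c6v1 and Cyp2c13, 2 further P450s, followed with differences of 10.91 and 10.38. Fabp1, the liver fatty acid binding protein, was at 13.89, 13.84, 13.83 and 13.74 in liver and at 3.20, 3.49 and 3.29 in kidney. Obp3, a lipocalin, varied more among livers, at 13.11, 12.22, 12.57 and 12.74, against 2.07, 2.16 and 2.21 in kidney. Cps1, the mitochondrial enzyme that opens the urea cycle, differed by 10.46 ± 0.09 (SE).

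The 8 genes with the largest deficit in liver were Cltrn, Gba3, Calb1, Slc12a1, Kap, Slc7a13, Cldn10 and Tinag. Cltrn, the membrane partner of amino acid carriers known as collectrin, was at 3.02, 2.65, 3.07 and 3.27 in liver and at 13.34, 13.42 and 13.31 in kidney. Its difference of -10.36 ± 0.14 (SE; limma adjusted p = 7.28e-12) was the largest of the genes lower in liver. Gba3, a cytosolic beta-glucosidase, differed by -9.02 and Calb1, the calcium buffer of the distal tubule, by -8.79. Slc12a1, the sodium-potassium-chloride carrier of the thick ascending limb, was at 2.81, 2.75, 2.80 and 2.56 in liver and at 11.46, 10.99 and 12.08 in kidney. Kap, the kidney androgen-regulated protein, was at 5.69, 5.37, 6.02 and 6.43 in liver and at 14.53, 14.48 and 14.59 in kidney. Slc7a13, an amino acid carrier of the proximal tubule, Cldn10, a tight junction claudin, and Tinag, a basement membrane protein, differed by -8.56, -8.43 and -8.41. The top genes of both directions were chosen among genes with no overlap between the organs' arrays, so the lack of overlap in them is no separate result.

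**Figure D2:**
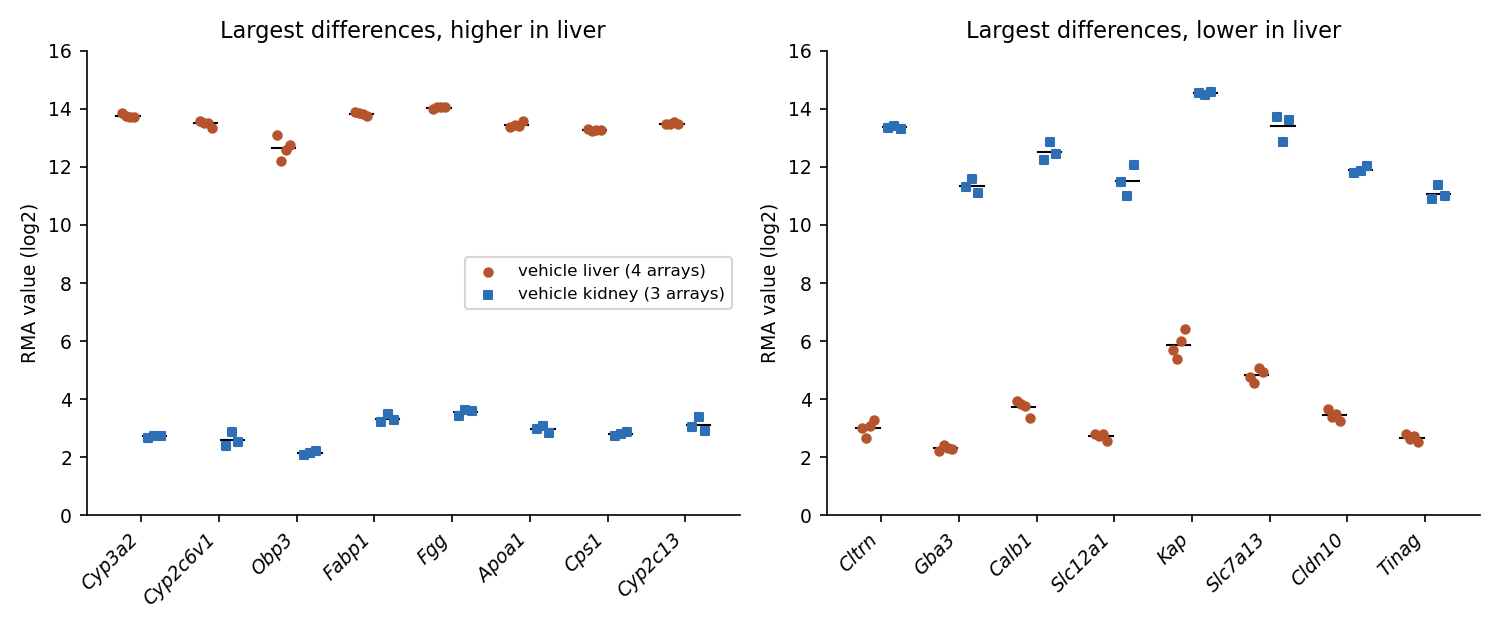
Log2 RMA values of the 8 genes with the largest positive and the 8 with the largest negative difference, with 4 vehicle livers (orange circles) left of 3 vehicle kidneys (blue squares) and a bar at each mean. No array of one organ overlaps the other, which the choice of genes required, and the smallest of these mean differences is that of Tinag, -8.41.

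Of 73 measured genes for plasma proteins known to come from liver, all 73 were higher in liver, 67 of them at least 8-fold, with a median difference of 7.73 against -0.03 over all genes. Alb, serum albumin, was at 14.70, 14.73, 14.69 and 14.68 in liver and at 4.25, 4.43 and 4.63 in kidney. Ahsg, the serum protein fetuin-A, differed by 10.38 ± 0.10 (SE) and Apoa1, the main protein of high-density lipoprotein, by 10.48 ± 0.10. Fgg, the gamma chain of fibrinogen, was at 13.98 to 14.07 in liver and 3.43 to 3.63 in kidney.

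The plasma proteins nevertheless covered a wide range. Hamp, the iron hormone hepcidin, differed by 7.71, Igf1, the growth factor released under growth hormone, by 5.14 and Agt, the precursor of angiotensin, by 4.36. Serpinc1, antithrombin, averaged 13.60 ± 0.03 in liver and 9.96 ± 0.61 in kidney (SD), a difference of 3.64. The smallest differences belonged to Apom, an apolipoprotein, with 11.21 ± 0.12 in liver and 10.95 ± 0.03 in kidney (SD; limma adjusted p = 0.0448), and A1bg, with 3.60 ± 0.15 and 3.16 ± 0.06. By symbol, all 13 apolipoprotein genes were higher in liver, 10 of them at least 8-fold. Serpins counted 22 higher and 3 lower of 33, and coagulation factors 9 higher and 1 lower of 12. The lower one was F3, tissue factor, the cell-surface trigger of clotting, at -4.82. Among genes with the symbol of a complement component, 24 of 36 were higher and 5 lower, with C4bpa at 9.40, C8a at 8.68 and C9 at 8.45. The 1 at least 8-fold lower was C1qtnf3, at -5.12, which is a relative of C1q and not a part of the cascade.

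Proteins known to be released by kidney cells were less uniform. Of 31 measured, 22 were lower in liver and 4 higher, 14 and 2 of them at least 8-fold, with a median of -2.72. Umod, uromodulin, the main protein of normal urine, was at 4.82, 4.64, 4.54 and 5.18 in liver and at 13.20, 12.54 and 13.30 in kidney, a difference of -8.22 ± 0.21 (SE; limma adjusted p = 5.67e-10). Klk1, tissue kallikrein, differed by -7.69, Defb1, a beta-defensin, by -7.59 and Sostdc1, a secreted antagonist of BMP and WNT signals, by -6.32. Egf, the growth factor made in the distal nephron, averaged 8.47 ± 0.09 in liver and 12.60 ± 0.05 in kidney (SD).

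In that list 2 genes went far the other way. Cfi, complement factor I, was at 12.65, 12.70, 12.52 and 12.57 in liver and at 4.62, 4.42 and 4.34 in kidney, 284-fold higher in liver. Clu, the chaperone clusterin, was at 12.02 to 12.29 in liver and 8.84 to 9.33 in kidney, a difference of 3.10. Both are known as plasma proteins as well. Epo, erythropoietin, was near the bottom of the scale in both organs, at 3.63, 3.59, 3.64 and 3.23 in liver and 3.17, 3.01 and 3.08 in kidney. It passed the test by 0.44 (limma adjusted p = 0.0112), but not after a second quantile normalization (0.27, adjusted p = 0.0938) or without the arrays numbered 2 (0.38, adjusted p = 0.0872). Pappa2, a protease that frees insulin-like growth factors, was 0.45 higher by its representative probe set and at -0.23 by the median over its probe sets.

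**Figure D3:**
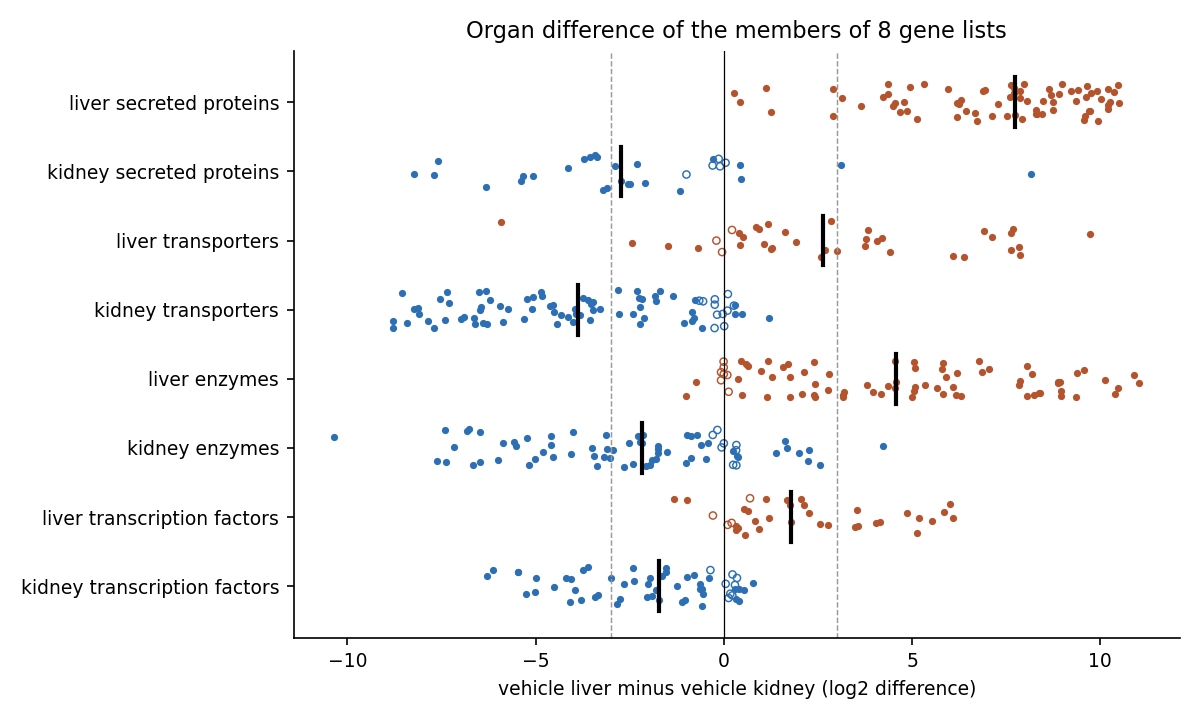
Each point is a member of 1 of 8 gene lists, placed by its log2 difference between vehicle liver and vehicle kidney, filled where limma's adjusted p was below 0.05 and open where it was not, with vertical spread for visibility only. Black bars mark list medians and dashed lines the 8-fold limits, and the liver secreted proteins, with a median of 7.73, hold no member below 0.

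Among the role lists, transporters held the most genes at least 8-fold lower in liver. Of 84 measured kidney transporter genes, 69 were lower in liver and 4 higher, and 50 were at least 8-fold lower, with a median of -3.88. Slc34a1, the sodium-phosphate carrier of the proximal tubule, was at 5.21, 5.36, 5.51 and 5.56 in liver and at 13.58, 13.70 and 13.63 in kidney, a difference of -8.23 ± 0.11 (SE; limma adjusted p = 6.89e-12). Slc7a9 and Slc3a1, the subunits of the cystine carrier, differed by -8.10 and -7.86. Lrp2 and Cubn, the receptors megalin and cubilin that take up filtered proteins, differed by -5.86 and -7.31. Slc5a2, the main glucose carrier of the early proximal tubule, averaged 5.32 ± 0.10 in liver and 10.43 ± 0.25 in kidney (SD).

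Later segments of the tubule were represented too. Slc12a3, the thiazide-sensitive sodium chloride carrier, differed by -4.44. Of 3 measured markers of the distal convoluted tubule, 2 were lower in liver and 1 was higher, by 0.53. Fxyd2, a regulator of the sodium pump, differed by -8.12. Aqp2, the vasopressin-regulated water channel of the collecting duct, was at 5.01, 4.97, 5.36 and 5.06 in liver and at 10.29, 9.52 and 10.01 in kidney. Of 20 genes for subunits of the vacuolar proton pump, 17 were lower in liver and 1 higher. The 3 at least 8-fold lower were Atp6v1g3 at -7.54, Atp6v0a4 at -6.97 and Atp6v1b1 at -4.61, which are known from acid-secreting intercalated cells. Of 16 claudins, the sealing and pore proteins of tight junctions, 5 were higher in liver and 8 lower, beside 28.2% and 36.8% of all genes. Besides Cldn10, the claudins lower in liver included Cldn8 at -7.36 and Cldn16, of the thick ascending limb, at -3.95. Potassium channels gave the reverse count, with 33 higher in liver and 13 lower of 75, beside 28.2% and 36.8% of all genes. Their largest excess in liver was only 0.86, and their median was 0.25. The lower quartile of all probe sets was also higher in liver, at 3.91 to 3.96 against 3.76 to 3.78 in kidney. The part of that shift in such small differences was not tested. Their 4 members past 8-fold were all lower in liver, namely Kcnj16 at -7.40, Kcnj15 at -6.61, Kcnj12 at -3.56 and Kcnj1, the channel of the thick ascending limb and collecting duct, at -4.52.

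Liver transporters were higher in liver in 31 of 38 and lower in 4, with 17 at least 8-fold higher and a median of 2.64. Slc10a1, the sodium-dependent bile acid uptake carrier, was at 13.05, 13.07, 13.04 and 13.02 in liver and at 5.63, 5.60 and 4.87 in kidney. Abcb11, the pump that exports bile acids into bile, was at 11.19, 11.17, 11.12 and 10.96 in liver and at 3.00, 3.46 and 3.32 in kidney. Slc27a5, which activates bile acids and fatty acids, differed by 7.87 ± 0.34 (SE), its kidney arrays lying at 3.69, 5.38 and 4.05. Slc38a4, a carrier of neutral amino acids, had the largest difference of the list at 9.72.

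The exceptions among liver transporters were large in 1 case. Slc22a25, of the organic anion carrier family, was at 4.81, 5.32, 4.79 and 4.90 in liver and at 10.75, 10.97 and 10.92 in kidney, 60.7-fold lower in liver. Slc16a13 and Slc16a10, of the monocarboxylate carrier family, differed by -2.45 and -1.48, and Slc37a4, the carrier that feeds glucose 6-phosphate to the endoplasmic reticulum, by -0.70. In the kidney list, Slc20a2, a phosphate carrier, was higher in liver by 1.19. The other 3 that were higher, Slc14a1, Slc14a2 and Trpv5, differed by 0.29 to 0.49. All 3 missed the threshold with the median over each gene's probe sets, where Slc14a2 stood at -0.06. Trpv5 also missed it without liver replicate 2 (0.24) and without kidney replicate 1 or 2 (0.29 and 0.26), and Slc14a2 without liver replicate 2, 3 or 4 or any 1 kidney array (0.24 to 0.31).

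Taken by symbol alone, 85 of 303 solute carriers were higher in liver and 132 lower, beside 28.2% and 36.8% of all genes. At least 8-fold, 13 were higher and 45 lower, beside 2.50% and 3.00% of all genes. The ABC transporters counted 16 higher and 14 lower of 37, beside 28.2% and 36.8% of all genes. At least 8-fold higher were 6, among them Abcc2, a conjugate export pump, at 4.13 and Abcg5, a sterol exporter, at 4.42. The 1 at least 8-fold lower was Abca4, at -3.42. Among 11 aquaporins, Aqp8 at 7.13 and Aqp9 at 6.91 were at least 8-fold higher in liver, and 5 were at least 8-fold lower, Aqp3 at -5.94, Aqp1 at -5.31, Aqp2 at -4.84, Aqp7 at -4.32 and Aqp4 at -3.74. Of 3 Aqp4 probe sets, 2 had this sign, and none was called in the opposite direction.

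Enzymes of the liver list were higher in liver in 70 of 79 genes and lower in 2, with 49 at least 8-fold higher and a median of 4.58. The urea cycle was represented by Cps1 at 10.46, Arg1 at 8.96 and Otc at 8.38. Bile acid synthesis was represented by Cyp7a1, its rate-limiting enzyme, which varied among livers at 10.55, 8.72, 9.94 and 8.81 and was at 3.18, 3.82 and 3.04 in kidney. That spread of nearly 2 log2 units left the organs apart, with a difference of 6.16 ± 0.41 (SE; limma adjusted p = 8.91e-07). Tdo2, the first enzyme of tryptophan breakdown, differed by 8.97, and Uox, which oxidises uric acid in rats, by 6.86.

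Cytochrome P450 genes made up 57 of the genes measured, of which 39 were higher in liver, 24 at least 8-fold, and 8 were lower. Cyp4a8, a fatty acid hydroxylase, was the 1 at least 8-fold lower, at 4.35, 4.70, 4.47 and 5.26 in liver and 12.10, 11.91 and 12.26 in kidney. Cyp2e1, which oxidises ethanol and small solvents, averaged 13.42 ± 0.16 in liver and 10.66 ± 0.41 in kidney (SD), a smaller difference of 2.76. Of 9 UDP-glucuronosyltransferases, which attach glucuronic acid to drugs and hormones, 7 were higher and 2 lower. Ugt2b15 and Ugt2b1 were at 9.14 and 8.20, whereas Ugt2b7 was at -3.61. Sulfotransferases divided likewise, with Sult1e1, an estrogen sulfotransferase, at 10.12 and Sult1c2 at -4.52. Of 19 glutathione S-transferases, 10 were higher in liver and 4 lower, beside 28.2% and 36.8% of all genes. Among these transferases, Gstm1 was at 4.44, Gstp3 at 7.52 and Gstp1 at -3.51. Members of such families are close in sequence, and a probe set may read more than 1 of them.

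The kidney enzymes were lower in liver in 54 of 73 and higher in 11, with 30 at least 8-fold lower and a median of -2.16. Hnmt, which methylates histamine, differed by -7.62 ± 0.33 (SE), with kidney arrays at 11.39, 9.86 and 11.07 and livers at 2.66 to 3.50. Its other probe set had the opposite sign but did not pass the threshold. Mep1a, a brush border protease, differed by -7.37, Gpx3, the plasma glutathione peroxidase, by -7.17 and Ggt1, gamma-glutamyltransferase, by -6.82. Ldhb, the heart-type subunit of lactate dehydrogenase, averaged 6.22 ± 0.18 in liver and 12.87 ± 0.08 in kidney (SD). Gatm and Miox, enzymes of creatine and inositol metabolism, differed by -5.51 and -4.81.

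Among the 11 kidney enzymes higher in liver, Maob, a monoamine oxidase, was at least 8-fold higher, at 11.41, 11.56, 11.48 and 11.44 in liver and 6.99, 7.50 and 7.22 in kidney. Cyp4f6, Cyp2j4 and Ptgs1, which act on fatty acids and prostaglandin precursors, differed by 2.56, 2.27 and 2.25. In the liver list, Dio1, the deiodinase that activates thyroid hormone, was at 6.68 to 7.07 in liver and 7.68 to 7.98 in kidney, and Acot3, an acyl-CoA thioesterase, differed by -0.74.

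The median differences of transcription factors were smaller than those of the other roles. Of 36 measured liver factors, 30 were higher in liver and 2 lower, and 12 were at least 8-fold higher, with a median of 1.78. Foxa2, a pioneer factor of liver development, was at 8.71, 9.73, 9.58 and 9.25 in liver and at 3.22, 3.28 and 3.44 in kidney, a difference of 6.00 ± 0.21 (SE). Foxa3 and Foxa1 differed by 4.05 and 3.55. Onecut1, also called HNF6, was at 6.96 in the first liver and at 10.21, 9.25 and 9.47 in the others, against 2.98, 2.56 and 3.10 in kidney. Its relative Onecut2 was even among livers at 9.16 to 9.58. Creb3l3, a membrane-bound factor of lipid metabolism, and Hhex, a homeobox factor, differed by 5.54 and 5.17.

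Nuclear receptors as a family counted 18 higher and 12 lower of 41, beside 28.2% and 36.8% of all genes. The 3 at least 8-fold higher were Nr5a2, a regulator of bile acid genes, at 5.13, Nr1i3, the drug-sensing receptor CAR, at 4.87, and Nr0b2, the corepressor SHP, at 3.47. Hnf4a, the nuclear receptor named after hepatocytes, was lower in liver, at 11.83, 11.41, 11.37 and 11.63 against 12.62, 12.51 and 12.45 in kidney. Its difference was -0.97 ± 0.13 (SE; limma adjusted p = 0.000113), its 3 probe sets had the same sign, and no arrays overlapped. Trim24, a transcriptional corepressor, was the other liver factor lower in liver, at -1.31. Nr1h4, the bile acid receptor FXR, averaged 9.84 ± 0.07 in liver and 8.92 ± 0.14 in kidney (SD), a difference of 0.92. Ppara, the fatty acid receptor, was too variable to call, with an interval from -0.52 to 1.91.

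Kidney factors were lower in liver in 43 of 57 and higher in 6, with 18 at least 8-fold lower and a median of -1.72. When only probe sets with a mean above the median were tested, 25 were called lower, against 43. Members with a dimmer probe set were not tested in that run, so the fall is no count of members that failed. Hoxd8, a homeobox gene, was at 4.45, 4.35, 4.32 and 4.29 in liver and at 10.41, 10.77 and 10.74 in kidney. Pou3f3, a factor of nephron patterning, was at 2.49, 2.75, 2.75 and 3.12 in liver and at 9.08, 8.61 and 9.04 in kidney. Bnc2 and Emx2 followed at -5.47 and -5.46. Of 22 Hox genes, 16 were lower in liver and 2 higher, and 7 were at least 8-fold lower, among them Hoxa9 at -5.25 and Hoxa10 at -5.00. Pax8, Lhx1 and Gata3, known from kidney development, differed by -3.43, -3.62 and -4.09. Foxi1, the factor of intercalated cells, was at 2.85 to 2.98 in liver and 6.80 to 7.34 in kidney.

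The 6 kidney factors higher in liver differed by little. Sall4, the first of them, was 0.78 higher. Hoxc4 was 0.53 higher by its representative probe set and -0.32 by the median over its probe sets, of which another was called the other way. Tbx2 and Foxc2 were 0.41 and 0.39 higher, and both missed the threshold without kidney replicate 3, at 0.40 and 0.34. Tbx2 also missed it without liver replicate 3 (0.36) and without kidney replicate 1 (0.29).

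Pairs of related genes were written with 1 gene known from liver and 1 from kidney, so their directions describe the choice and support no general statement. Of 18 such pairs, both genes were measured in 10, and in these the gene listed for liver was higher in liver and the gene listed for kidney lower. The arginases were furthest apart. Arg1, of the urea cycle, was at 12.98, 12.78, 12.84 and 12.85 in liver and at 3.90, 3.91 and 3.89 in kidney, while Arg2, its mitochondrial relative, was at 3.80, 3.74, 3.74 and 3.87 in liver and at 8.82, 7.64 and 8.72 in kidney. Mat1a and Mat2a, which make S-adenosylmethionine, differed by 8.05 and -4.09. The aquaporins Aqp9 and Aqp1 differed by 6.91 and -5.31, and the organic anion carriers Slc22a7 and Slc22a6 by 3.83 and -6.63. These are each gene's own organ difference, since levels of different probe sets are not comparable.

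Other pairs were lopsided. Hsd11b1, which activates corticosterone, was at 13.06 to 13.30 in liver and 12.30 to 12.92 in kidney, a difference of 0.59. Hsd11b2, which inactivates it, was at 6.99, 6.70, 6.45 and 6.92 in liver and at 11.47, 12.19 and 12.16 in kidney, a difference of -5.18 ± 0.19 (SE). Slc13a5 and Slc13a2, which carry citrate and dicarboxylates, differed by 0.43 and -3.83, and Slc7a2 and Slc7a9, carriers of cationic amino acids and cystine, by 1.06 and -8.10. Gys2 and Gys1, the glycogen synthases, differed by 5.82 and -1.29, Hao1 and Hao2, the hydroxyacid oxidases, by 5.07 and -1.52, and Acsm5 and Acsm3, which activate medium-chain acids, by 0.99 and -2.15. In further pairs 1 gene was analysed here. Slco1b2, a liver uptake carrier of organic anions, differed by 7.63 and Slc22a2, a kidney uptake carrier of organic cations, by -6.51. Pklr, the pyruvate kinase of liver and red cells, differed by 1.15, Slc6a13, a GABA carrier, by 1.28 and Hk1, a hexokinase, by -2.16, with another Hk1 probe set called the other way. Gls2, a glutaminase, and Hnf4a also belonged to such pairs and differed by 4.55 and -0.97.

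**Figure D4:**
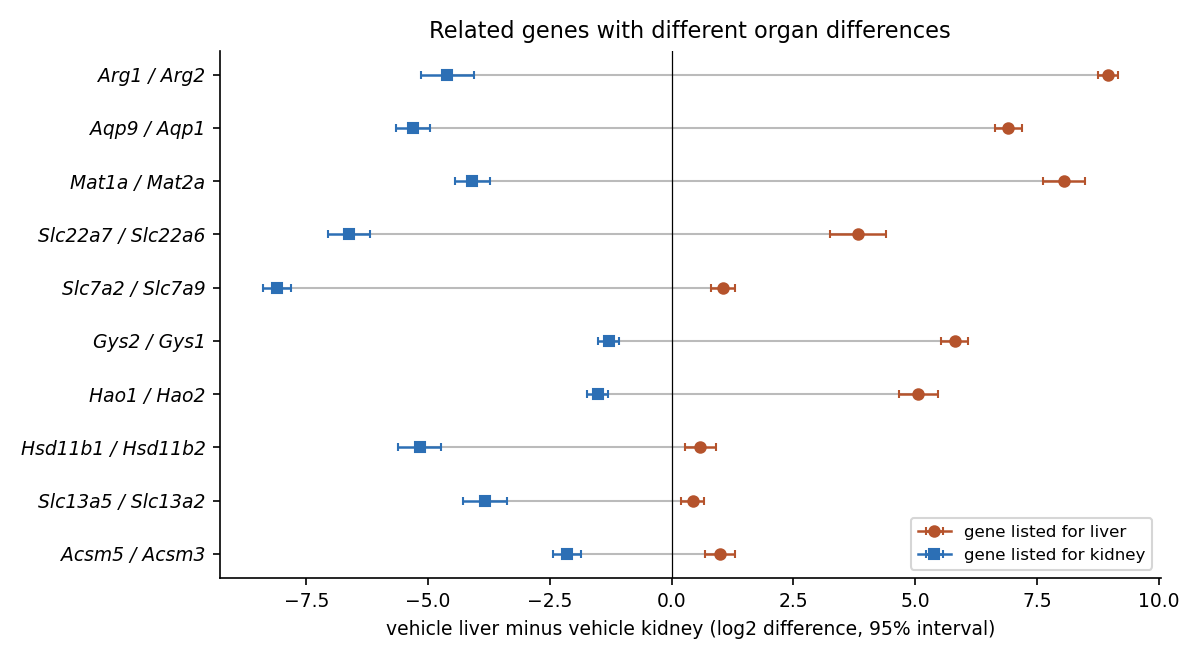
Log2 difference between vehicle liver and vehicle kidney for both genes of 10 related pairs, with 95% confidence intervals from limma. The gene listed for liver (orange circle) lies right of 0 and the gene listed for kidney (blue square) left of it in all 10 pairs, from Arg1 and Arg2 at 8.96 and -4.60 to Acsm5 and Acsm3 at 0.99 and -2.15.

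Genes of tasks that both organs share had medians near 0, as all genes did (-0.03), but were called no less often. In gluconeogenesis and sugar handling, 9 of 27 were higher in liver and 13 lower, with a median of -0.17. These 22 called stand beside 65.0% of all genes. At least 8-fold, 2 were higher and 1 lower, beside 2.50% and 3.00% of all genes. Pck1, the enzyme that commits carbon to glucose, was at 12.88, 13.00, 13.13 and 12.72 in liver and at 12.88, 12.97 and 13.04 in kidney. The arrays overlapped, and the interval of the difference ran from -0.29 to 0.22. Fbp1, the next regulated enzyme of the pathway, was at 12.54 to 12.82 in liver and 13.55 to 13.62 in kidney, a difference of -0.86. Pc, pyruvate carboxylase, had an interval from -0.27 to 0.17. The list nevertheless held separate genes within it, with Gpt2, an alanine aminotransferase, at 4.03, Ldha, the muscle-type lactate dehydrogenase subunit, at 2.31 and Ldhb at -6.65.

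Amino acid breakdown gave 14 higher and 13 lower of 35, with a median of -0.07. These 27 called stand beside 65.0% of all genes. At least 8-fold, 3 were higher and 2 lower, beside 2.50% and 3.00% of all genes. Hgd and Asl, of tyrosine breakdown and the urea cycle, had intervals of -0.18 to 0.33 and -0.36 to 0.17. Tat, which opens tyrosine breakdown, and Gls2, the liver-type glutaminase, differed by 5.05 and 4.55. Oat, an ornithine aminotransferase, and Glul, glutamine synthetase, differed by -1.31 and -1.13. Of 43 cytosolic ribosomal protein genes, 1 was higher in liver and 22 lower, beside 28.2% and 36.8% of all genes. Their median was -0.25, and none was past 8-fold.

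Cells other than the main epithelia were seen as well. All 8 macrophage markers measured were higher in liver, with a summed level of 11.84 to 12.37 in liver and 9.54 to 9.87 in kidney. Clec4f, a lectin of Kupffer cells, differed by 5.47 and Cd163, a haemoglobin scavenger receptor, by 4.10. The 4 bile duct markers measured were all lower in liver, at 8.97 to 9.58 summed in liver and 12.74 to 13.03 in kidney. They included Epcam at -3.62 and Krt19 at -1.85, which kidney epithelium is also known to express. The 5 podocyte markers measured were all lower in liver, at 8.15 to 8.42 in liver and 10.24 to 10.63 in kidney. Other lists were mixed. Of 9 endothelial markers measured, 5 were higher in liver and 4 lower, with differences from -2.42 to 4.38. Of 9 stellate cell and fibroblast markers, 4 were higher, 2 lower and 3 not called, from -2.72 to 5.29.

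A few genes varied more within an organ than most did between organs. Ugt2b was at 13.10, 13.38, 13.45 and 4.81 in liver, where the last array lacked most of the signal, and at 2.73, 2.64 and 2.65 in kidney. Its standard error of 1.81 was accordingly wide, with an interval from 4.45 to 12.57 around a difference of 8.51, which was 10.64 without that array. In the 23 dosed livers it was below 6 in 2 and above 7 in 21. Abhd3, a phospholipid-cleaving enzyme, was at 7.35, 3.29, 7.57 and 3.45 in liver and at 8.53, 8.13 and 8.59 in kidney. Its difference of -3.00 (limma adjusted p = 0.0279) missed the threshold without liver replicate 2 (-2.30) or 4 (-2.35) and without any 1 of the 3 kidney arrays (-3.15 to -2.92). In the dosed arrays it was above 7 in 3 of 23 livers and in 14 of 14 kidneys.

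RT1-Bb, a class II histocompatibility gene, was at 4.44, 4.32, 6.73 and 7.17 in liver and at 3.93, 3.87 and 8.69 in kidney, so that each organ held low and high arrays. Cdh17, a cadherin, was at 9.72, 5.98, 6.65 and 7.33 in liver and 4.88, 4.89 and 5.08 in kidney. Car3, a carbonic anhydrase abundant in male rat liver and in fat, was at 13.89 to 14.02 in liver and at 4.49, 9.79 and 10.01 in kidney. Thrsp, a regulator of fat synthesis, was at 10.10 to 11.33 in liver and at 3.33, 5.95 and 7.80 in kidney. The kidney values of both were highest in replicate 3, as were the summed adipocyte markers, and their part in the result was not tested. Without kidney replicate 1, the Car3 difference was 4.06.

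**Figure D5:**
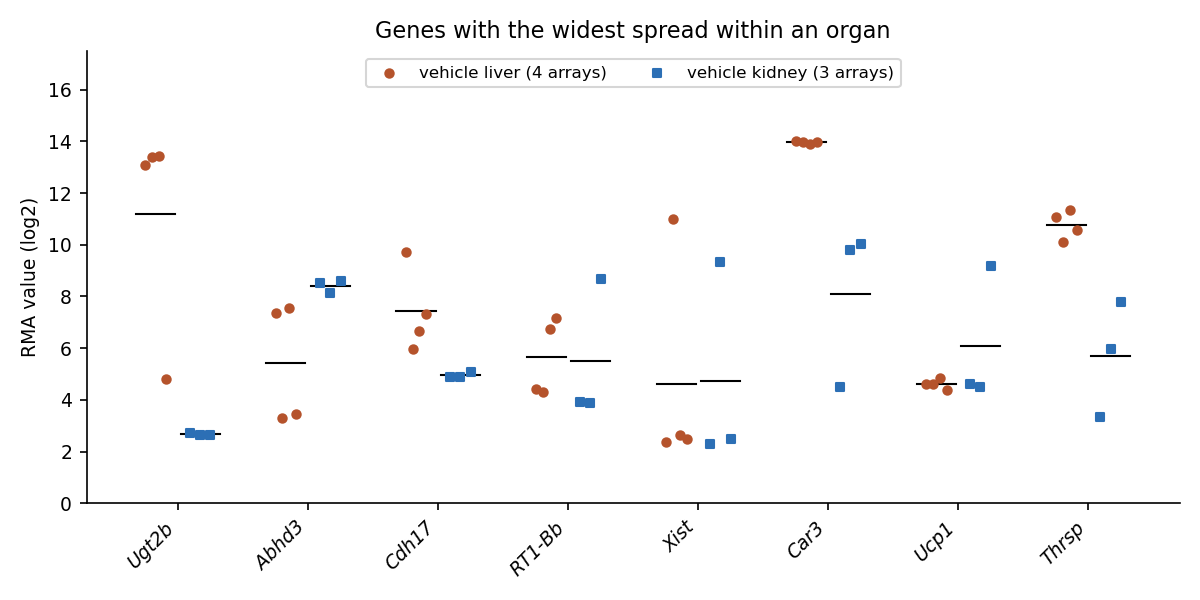
Log2 RMA values in 4 vehicle livers (orange circles) and 3 vehicle kidneys (blue squares) of the genes with the widest spread within an organ, with a bar at each mean. Xist is high in 1 array of each organ, at 11.00 and 9.33, Ugt2b is at 4.81 in 1 liver and Ucp1 at 9.17 in 1 kidney.

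The organ differences were also present in arrays that the comparison did not use. At each of the 6 doses of MCHM, all 356 genes at least 8-fold higher in vehicle liver were higher in liver, and all 426 lower ones were lower. At least 8-fold was kept at every dose by 303 of the 356 and 341 of the 426. In the pooled arrays at 0.1, 1 and 10 mg/kg, 11 of liver and 6 of kidney, 339 and 399 remained past 8-fold. Of the 782 genes past 8-fold, 211 have more than 1 probe set, and in 185 of these all probe sets had the same sign, while 9 had a probe set called in the opposite direction. One dosed kidney, replicate 1 at 1 mg/kg, had Alb at 11.06, against 3.85 to 5.86 in the other 16 kidney arrays, and with 1 kidney array left at that dose 299 liver genes kept 8-fold at every dose.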

How the data were processed

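The series table holds log2 expression values that the authors deposited for 44 arrays, summarised by RMA per the submitters' processing notes. RMA corrects background, equalises the arrays' distributions and combines probes into probe sets. The sources used here do not give its version, the chip definition or whether both organs were normalized together. The distributions of the values used here were alike within an organ but not between organs. The upper quartile was 7.14 to 7.18 in liver and 7.37 to 7.40 in kidney. After a second quantile normalization of the vehicle arrays, 16145 probe sets passed, against 18258 without it. Equalising distributions hides a shift of most transcripts in one direction, and RMA compresses differences of dim probe sets. Detection above background could not be judged, since scanner files were not used here. The submitters had removed arrays with batch effects, per the series' design text. The number of arrays limits the precision. No pair of arrays held identical values (0 pairs).

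Of 31099 probe sets, 57 controls were left out and 31042 tested. A single gene symbol belonged to 20826, several to 436 and none to 9780. Through their gene IDs, 20758 matched current symbols in RefSeq's GRCr8 gene table, which gave 14217 genes. Some genes are not analysed here.

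Arrays were grouped by title. limma 3.58.1 in R 4.3.3 (lmFit, eBayes) fitted the 4 liver and 3 kidney vehicle arrays, liver minus kidney, with two-sided tests and Benjamini-Hochberg adjustment over all 31042 probe sets at a threshold of 0.05. Every adjusted p is from limma. Intervals are at 95% confidence. The script was tested on simulated data. Gene lists by role and pairs of related genes were written from textbook knowledge, families were taken by symbol, and list members under older names were matched through synonyms. Members and lists were chosen with earlier results of these data known, and lists are described by counts and medians, with no set test.

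Named genes are the 8 with the largest difference each way, up to 4 per role list in its direction and 4 the other way, both genes of each pair, Alb, Cyp7a1, Umod, Slc34a1, Hnf4a, Pck1 and Fbp1 whatever their values, the first 3 members past 8-fold each way in a family, and the 5 with the largest standard deviation in each organ. Other list members given with values were chosen after these were seen, as examples. The 8 each way were taken among genes past the threshold with no overlap between the organs' arrays.

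Alternatives were a filter on dim probe sets, a second quantile normalization, all 44 arrays in one fit, the replicate number as a block, each array left out, both arrays numbered 2 left out, the arrays at 0.1, 1 and 10 mg/kg in place of vehicle, another variance prior, a test against a 2-fold difference, a 4-fold limit and the median over a gene's probe sets.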

Additional observations from a re-analysis of the deposited data

Results flagged for a closer look

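In single vehicle livers, 9 of the 147 named genes had a value far from the other 3 arrays by Dixon's test at the 95% level. Chance alone flags about 1 in 20 such groups, and this count is near that rate. The rate does not hold for genes named for their spread, Ugt2b and Xist among them. Replicate 4 held 5 of the 9. There Ugt2b was lowest at 4.81 and Ugt2b1, another glucuronosyltransferase, lowest at 11.14. Also in replicate 4, Acsm5 was lowest at 7.51, Epo lowest at 3.23 and Hao1 highest at 12.49. In replicate 2, Xist was highest at 11.00, Cldn16 highest at 4.42 and Sostdc1 lowest at 3.61. In replicate 1, Hao2 was lowest at 12.62.

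Outside the vehicle arrays, Alb was at 11.06 in the kidney array of replicate 1 at 1 mg/kg. In that array Fabp1 was at 7.75, Fgg at 7.74 and Ugt2b at 6.81. There 196 of the 356 genes at least 8-fold higher in vehicle liver were above every vehicle kidney. The other dosed kidney arrays had 56 to 113 of the 356 above every vehicle kidney.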

How the results depend on the processing

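The number of probe sets that passed depended on what was tested. With only the probe sets whose mean lay above the median, 11459 passed, 4634 higher in liver and 6825 lower, and 25 kidney transcription factors were lower in liver, all counts from fewer probe sets tested. Against a difference of 2-fold 3473 passed, and 2221 were past 4-fold. Leaving out 1 array at a time gave 15651 to 17326 probe sets, 7819 to 9084 of them higher in liver and 7832 to 8413 lower, and 1123 to 1162 past 8-fold, 488 to 502 higher and 633 to 660 lower. The members called in their list's direction then numbered 72 to 73 liver and 21 to 22 kidney secreted proteins, 31 liver and 69 to 71 kidney transporters, 68 to 69 liver and 54 to 55 kidney enzymes, and 28 to 30 liver and 42 to 43 kidney factors. In the lists for both organs 21 to 22 and 27 to 28 were called. Of 147 named genes, 133 kept direction and side of the threshold in every alternative run. The signs that turned were those of Pappa2 (-0.23), Slc14a2 (-0.0596) and Hoxc4 (-0.32) with the median over probe sets, and of genes that had not passed. These were Pck1 (0.10 at low doses, 0.0385 in the replicate block, and -0.0978 to 0.0385 without single arrays), Ucp1 (0.0623 without kidney replicate 3, and from -2.27 without single arrays), Xist (0.0945 without the arrays numbered 2, 0.23 at low doses, 0.63 in the replicate block, and -2.21 to 2.22 without single arrays) and RT1-Bb (-0.20 without the arrays numbered 2, -0.18 at low doses, -0.34 in the replicate block, and -0.65 to 1.77 without single arrays). The cause was not tested.

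With the replicate number as a block, 16893 probe sets passed, 8694 higher in liver and 8199 lower, and 496 and 643 were past 8-fold. Deviations of same-numbered liver and kidney arrays correlated at 0.179, 0.188 and 0.0974. Among replicates 1 to 3, each correlated best with its own number in the other organ, at most a hint from the data. The deviations are from the means of these same 3 arrays per organ, so the correlations are tied and are not separate observations. Liver replicate 4 has no kidney partner. The labels do not say that organs share animals, so the numbers were not taken as pairs.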
